A study of Homo sapiens with 6 samples.

Results

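The genes of the BCOR complex and its variant Polycomb partners were examined in human cancer cells after knockdown of SPOP, the substrate adaptor of a cullin 3 ubiquitin ligase. The 8 genes were BCOR, BCORL1, PCGF1, KDM2B, RYBP, RNF2, USP7 and SKP1, of 24551 gene symbols in all. They were found by symbol, 1 row for each gene, and all 8 were among the 11865 genes whose FPKM (sequenced fragments normalised for transcript length and library size) averaged 1 or more over the 6 libraries. The set was selected on its log2 changes with the SPOP siRNAs, so those changes are given as a description, with no test. BCOR fell past 1.5-fold with both SPOP siRNAs in both lines, to between 50.3% and 59.6% of its control. KDM2B rose past 1.5-fold with both siRNAs in DU145 and reached 2.22-fold and 1.62-fold of its control in 769-P. PCGF1 was lower and BCORL1 was higher in all 4 knockdown libraries, without passing 1.5-fold with both siRNAs in a line.

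The cells were DU145, a line from a prostate cancer, and 769-P, a line from a renal cell adenocarcinoma. Polyadenylated RNA was sequenced in each from cells given a control siRNA (NC), SPOP siRNA 1 or SPOP siRNA 2, with 1 library for each. The 2 siRNA libraries of a line were taken as its replicates, and the control has none, so any oddity of a control library enters both changes of its line. SPOP itself was left at 17.2% and 18.4% of the control in DU145 and at 13.2% and 12.0% in 769-P. Read counts cannot be had from FPKM, and only relative depth could be estimated. The spacing of low values put the depths at 0.68 to 1.41 times that of the 769-P control. In DU145 this estimate rests on few low values. The control had 12 of 23 at the commonest ratio, siRNA 1 had 9 of 11 and siRNA 2 had 7 of 9. The DU145 control and the 769-P siRNA 2 library stood apart, with 303 and 252 of 387 olfactory receptor genes above 0 whereas the remaining 4 libraries had 4 to 6. Renal genes summed to between 175 and 189 FPKM in 769-P, where PAX8 and LHX1 led and CA9 was listed at 0, against 11.2 to 19.4 in DU145. Of the prostate and epithelial markers, EPCAM stood at 27.6 to 36.2 FPKM and CDH1 at 8.87 to 17.7 in DU145, against at most 4.92 and 0.0977 in 769-P, while KLK3, FOLH1, HOXB13 and TMPRSS2 were each under 0.4 FPKM in all libraries.

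Polycomb repressive complex 1 (PRC1) places a ubiquitin on a lysine near the end of histone H2A and holds developmental genes in a silent state. Its variant forms lack the chromobox proteins of canonical PRC1 and carry RYBP or YAF2 in their place, with a different PCGF protein in each form. In the form studied here PCGF1 pairs with the catalytic RING protein, BCOR or BCORL1 acts as scaffold, and KDM2B docks the assembly on CpG islands, which are stretches of unmethylated DNA rich in CG. BCOR was first known as a co-repressor of BCL6, a transcription factor of germinal centre B cells, and it is mutated in several cancers.

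CG content at the start of the genes is shown first, because KDM2B reads unmethylated CG through its CXXC zinc finger. KDM2B and the pair that defines the complex, BCOR and PCGF1, are printed. The windows cover 250 bases before and 50 bases after a transcription start of RefSeq on GRCh38.p14, written 5′ to 3′ on the coding strand with every CG in capitals. Where a gene has several starts, the one with the most CG is printed.
BCOR, chrX:40146584-40146883 (minus strand): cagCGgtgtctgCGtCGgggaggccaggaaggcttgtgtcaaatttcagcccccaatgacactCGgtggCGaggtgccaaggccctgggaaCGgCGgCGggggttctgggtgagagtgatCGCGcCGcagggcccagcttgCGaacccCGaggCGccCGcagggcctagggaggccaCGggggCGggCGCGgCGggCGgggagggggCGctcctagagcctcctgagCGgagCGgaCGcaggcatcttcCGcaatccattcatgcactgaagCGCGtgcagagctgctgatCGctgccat
PCGF1, chr2:74507646-74507945 (minus strand): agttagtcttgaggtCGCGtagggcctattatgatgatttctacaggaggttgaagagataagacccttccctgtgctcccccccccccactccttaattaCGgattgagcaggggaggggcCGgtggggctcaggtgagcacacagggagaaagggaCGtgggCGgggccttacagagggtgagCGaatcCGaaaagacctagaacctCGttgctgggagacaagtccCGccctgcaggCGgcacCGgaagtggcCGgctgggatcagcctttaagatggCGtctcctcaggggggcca
KDM2B, chr12:121467329-121467628 (minus strand): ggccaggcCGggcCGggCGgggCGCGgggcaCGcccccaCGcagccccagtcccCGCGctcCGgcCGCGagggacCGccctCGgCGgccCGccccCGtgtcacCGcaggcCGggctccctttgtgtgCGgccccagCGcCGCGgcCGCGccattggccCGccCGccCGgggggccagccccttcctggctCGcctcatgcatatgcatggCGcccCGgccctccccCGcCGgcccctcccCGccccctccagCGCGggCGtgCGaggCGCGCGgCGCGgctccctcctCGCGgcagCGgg
The KDM2B window holds 46 CG, and 2.89% of 35116 promoter windows of this length hold at least as many. It is the richest of 4 KDM2B starts, and the others hold 33, 15 and 15, reached by 17.2%, 48.9% and 48.9% of windows. The BCOR window holds 29, reached by 24.2%, and its other start holds 7, reached by 63.2%. PCGF1 has 1 start, with 14, which is the median of all windows. Of the genes not printed, BCORL1 has starts with 46 and 36 CG, RYBP has 20, RNF2 has 41, SKP1 has 40, and the 3 starts of USP7 have 50, 1 and 0. The search was for the letters CG, which read the same on both strands. A FPKM value covers a whole gene, so it does not say which start was used.

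BCOR lies on chromosome X of GRCh37 from 39909068 to 40036582 on the minus strand. Its FPKM was 6.52 in the DU145 control, 3.39 with siRNA 1 and 3.88 with siRNA 2. The 769-P values were 7.77 in the control, 3.91 with siRNA 1 and 4.43 with siRNA 2. The controls were thus the 2 highest of the 6 values and the 4 knockdown libraries lay within a narrow band below them. The knockdown mean was 3.64 ± 0.345 FPKM (SD, n = 2 siRNAs) in DU145 and 4.17 ± 0.371 in 769-P. On the log2(FPKM + 1) scale, which understates the change of low genes, BCOR fell by 0.70 ± 0.107 (SD, n = 2) in DU145 and by 0.76 ± 0.104 in 769-P. FPKM is a share of the RNA of a culture, so less RNA per cell and fewer cells that express a gene cannot be told apart. The smallest of the 4 changes, -0.62 with siRNA 2 in DU145, lies just past the 1.5-fold threshold of 0.585. When the mean of the olfactory receptor genes was taken off each library as a background level, that value became -0.56, and BCOR no longer passed with both siRNAs in DU145.

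BCORL1, the paralog that can take the place of BCOR as scaffold, lies on chromosome X from 129115083 to 129192046 on the plus strand. It had 2.73 FPKM in the DU145 control, 3.48 with siRNA 1 and 3.62 with siRNA 2. The 769-P values were 2.06 in the control, 3.46 with siRNA 1 and 2.46 with siRNA 2. Within each line the control lay below both knockdown libraries, the reverse of BCOR, though the DU145 control was above the 769-P siRNA 2 library. Its log2 change was 0.29 ± 0.0332 (SD, n = 2) in DU145 and 0.36 ± 0.259 in 769-P, where 0.54 came from siRNA 1 and 0.18 from siRNA 2. The DU145 value depended on the scaling. It was 0.19 with each library centred on its median change and 0.42 with the olfactory receptor mean subtracted. After the median of genes of like GC content was taken off, it was 0.15. The ratio of BCOR to BCORL1 in FPKM was 2.38 in the DU145 control against 0.976 and 1.07 with siRNA 1 and siRNA 2. The 769-P ratio was 3.77 in the control against 1.13 and 1.80. BCOR was therefore the higher scaffold gene by level in both controls, while in DU145 the paralogs stood at near equal FPKM after knockdown.

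PCGF1, the Polycomb group ring finger protein that defines this variant complex and binds BCOR, lies on chromosome 2 from 74732170 to 74734822 on the minus strand. It had 20.1 FPKM in the DU145 control, 16.6 with siRNA 1 and 13.2 with siRNA 2. The 769-P libraries had 13.3, 9.003 and 6.998 in the same order. Each control was the highest library of its line, and siRNA 2 gave the lowest value in both lines. The log2 change of PCGF1 was -0.42 ± 0.221 (SD, n = 2) in DU145 and -0.68 ± 0.228 in 769-P. Only siRNA 2 in 769-P, at -0.84, passed 1.5-fold, and siRNA 2 in DU145 was just inside the threshold at -0.57. PCGF1 made up 22.6% of the summed FPKM of PCGF1, PCGF2, PCGF3, PCGF5 and PCGF6 in the DU145 control, and 19.4% and 15.7% with siRNA 1 and siRNA 2. Its share in 769-P was 19.1% in the control, 14.0% with siRNA 1 and 12.6% with siRNA 2. BMI1, the ring finger protein of canonical PRC1, is left out of that sum because it is listed in 1 row together with COMMD3.

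KDM2B, a histone demethylase whose CXXC finger binds unmethylated CG and whose F-box binds SKP1, lies on chromosome 12 from 121866899 to 122018928 on the minus strand. Its FPKM was 3.95 in the DU145 control, 9.84 with siRNA 1 and 6.92 with siRNA 2. The 769-P values were 2.85 in the control, 6.32 with siRNA 1 and 4.62 with siRNA 2. Both controls lay below all 4 knockdown libraries, and siRNA 1 gave the higher value in each line. The log2 change was 0.90 ± 0.320 (SD, n = 2) in DU145, where 1.13 and 0.68 were both past 1.5-fold. In 769-P it was 0.74 ± 0.268, and siRNA 2 at 0.55 fell just short of the threshold. The call in DU145 turns on how the libraries were scaled, and the miss in 769-P on that and on the value added to FPKM. With 0.1 added in place of 1, siRNA 2 stood at 0.79 in DU145 and 0.68 in 769-P, and KDM2B was called in both lines. With each library centred on its median change, siRNA 2 stood at 0.55 in DU145 and 0.61 in 769-P, so the call moved from DU145 to 769-P. KDM2A, the paralog with the same domains, was the higher of the pair by level in all 6 libraries. The ratio of KDM2B to KDM2A in FPKM was 0.132 in the DU145 control against 0.206 and 0.161 after knockdown, and 0.223 in the 769-P control against 0.318 and 0.252.

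**Figure D1:**
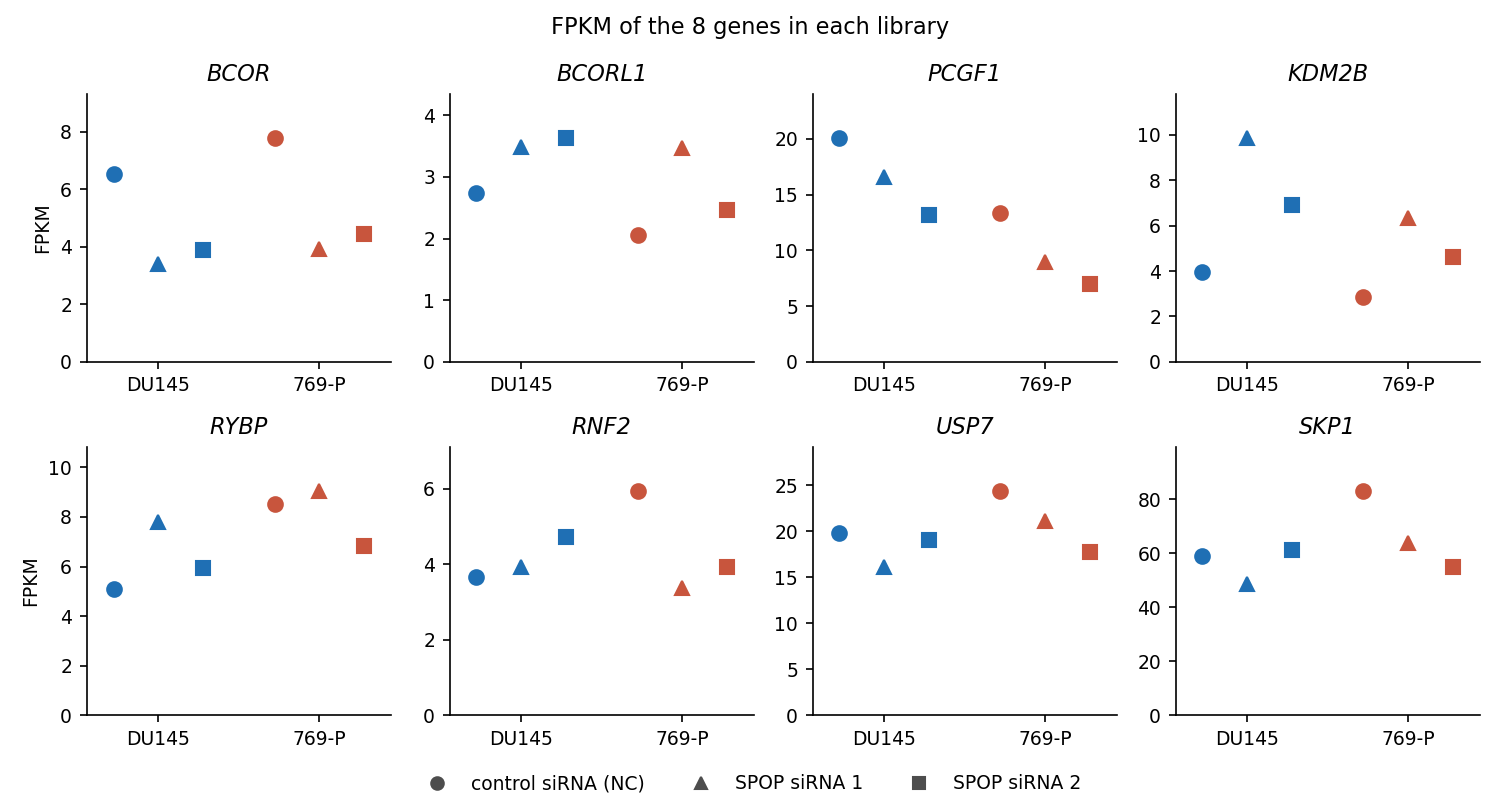
FPKM of the 8 genes in each of the 6 libraries, with 1 panel per gene, its own vertical axis from 0, and the NC, siRNA 1 and siRNA 2 libraries of DU145 and 769-P side by side. BCOR is highest in the 2 control libraries (6.52 and 7.77 FPKM), KDM2B is lowest in them (3.95 and 2.85), and SKP1 is by far the most abundant of the genes (48.7 to 83.0).

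RNF2, also called RING1B, is the RING protein that transfers ubiquitin to histone H2A, and it lies on chromosome 1 from 185014658 to 185071735 on the plus strand. It had 3.66 FPKM in the DU145 control, 3.92 with siRNA 1 and 4.73 with siRNA 2. The 769-P values were 5.93 in the control, 3.37 with siRNA 1 and 3.93 with siRNA 2. The control was thus the lowest library of DU145 and the highest of 769-P. The log2 change was 0.19 ± 0.155 (SD, n = 2) in DU145 and -0.58 ± 0.123 in 769-P. This pattern by sign, higher with both siRNAs in DU145 and lower with both in 769-P, was shared by 10.4% of all genes. The RNF2 transcript is poor in G and C (36.0%), and genes as poor in GC in 769-P had a median change of -0.32 and -0.38 for siRNA 1 and siRNA 2. After the median of genes of like GC content was taken off, RNF2 stood at -0.22 in 769-P. Its paralog RING1 is listed in 6 rows at 0 in every library, so its level, and the sum of both RING genes, is not known from these values.

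RYBP, which binds the RING protein of variant PRC1 and stimulates its ligase activity, lies on chromosome 3 from 72420976 to 72495772 on the minus strand. It had 5.11 FPKM in the DU145 control, 7.80 with siRNA 1 and 5.95 with siRNA 2. The 769-P libraries had 8.53, 9.03 and 6.82. In DU145 both knockdown libraries were above the control, while in 769-P they lay on either side of it. The log2 change was 0.36 ± 0.241 (SD, n = 2) in DU145 and -0.11 ± 0.254 in 769-P. The RYBP transcript is also poor in GC (40.6%). After the median of genes of like GC content was taken off, RYBP stood at 0.34 in DU145 and 0.13 in 769-P, where the sign changed. RYBP was above its paralog YAF2 in all 6 libraries, at 2.32 to 3.6 times its FPKM.

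USP7 and SKP1 serve many complexes besides this one. USP7, a deubiquitinase known for removing ubiquitin from MDM2, lies on chromosome 16 from 8985954 to 9069185 on the minus strand. Its FPKM was 19.8 in the DU145 control, 16.1 with siRNA 1 and 19.1 with siRNA 2, and 24.3, 21.1 and 17.7 in 769-P. The controls were the highest library of each line, but the DU145 siRNA 2 library stood at 96.2% of its control. SKP1, the adaptor of SCF ubiquitin ligases that also joins KDM2B to the complex, lies on chromosome 5 from 133484626 to 133512655 on the minus strand. Its FPKM was 59.1 in the DU145 control, 48.7 with siRNA 1 and 61.4 with siRNA 2, and 83.0, 63.9 and 55.1 in 769-P. In DU145 the control lay between the siRNA libraries, and in 769-P it was the highest. The log2 change of USP7 was -0.17 ± 0.163 (SD, n = 2) in DU145 and -0.32 ± 0.168 in 769-P. For SKP1 it was -0.11 ± 0.233 in DU145 and -0.48 ± 0.150 in 769-P.

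**Figure D2:**
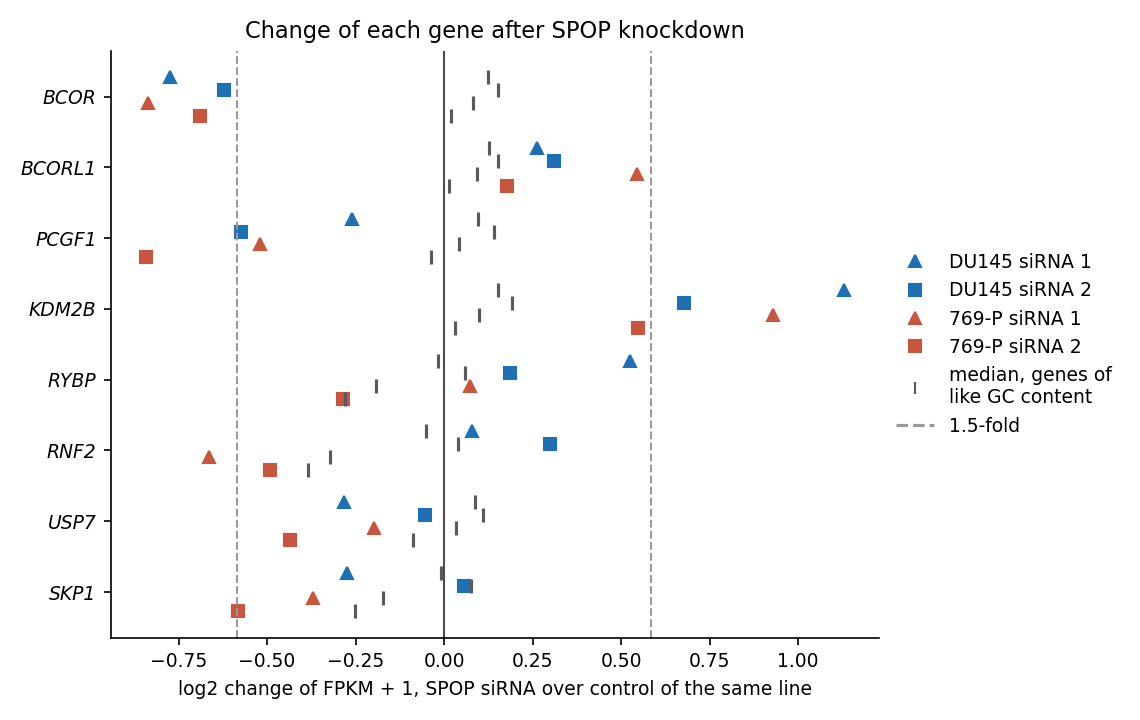
Change of each of the 8 genes on the log2(FPKM + 1) scale for each SPOP siRNA over the control of its line, with dashed lines at 1.5-fold in either direction. All 4 points of BCOR lie past the lower line (-0.62 to -0.84), and KDM2B has 3 of its 4 points past the upper line, with siRNA 2 in 769-P at 0.55.

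At 1.5-fold with both siRNAs, 2 of the 8 genes were called in DU145, BCOR as lower and KDM2B as higher. Of all genes tested, 1.19% were called lower and 4.72% higher in DU145. In 769-P, 1 of the 8, BCOR, was called lower, against 3.73% lower and 3.6% higher among all genes. BCOR was 1 of 32 genes called lower in both lines, which is 0.27% of those tested. None of the 8 was called higher in both lines, and 0.868% of all genes were. At 2-fold none of the 8 was called in either line, where 0.995% of all genes were called in DU145 and 1.22% in 769-P. Counted by sign alone in the 4 knockdown libraries, BCORL1 and KDM2B were higher in all 4, BCOR, PCGF1 and USP7 were lower in all 4, and RYBP, RNF2 and SKP1 were mixed. Among all genes 20.1% were higher and 13.6% lower in all 4. The median change of the 8 genes was 0.04 in DU145 beside 0.09 for all genes, and -0.40 in 769-P beside -0.03. The genes were chosen with these changes known, so nothing is read from the comparison with all genes.

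The levels of BCOR and KDM2B crossed over between control and knockdown. The ratio of KDM2B to BCOR in FPKM was 0.607 in the DU145 control and 2.90 and 1.78 with siRNA 1 and siRNA 2. The 769-P ratio was 0.366 in the control and 1.62 and 1.04. BCOR was therefore the more abundant transcript of the pair in both controls and KDM2B in all 4 knockdown libraries. The ratio of PCGF1 to BCOR was 3.08 in the DU145 control, 4.88 with siRNA 1 and 3.39 with siRNA 2. The same ratio in 769-P was 1.72, 2.30 and 1.58, so it did not move in a single direction there. These ratios compare transcripts, and the proteins were not measured here.

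**Figure D3:**
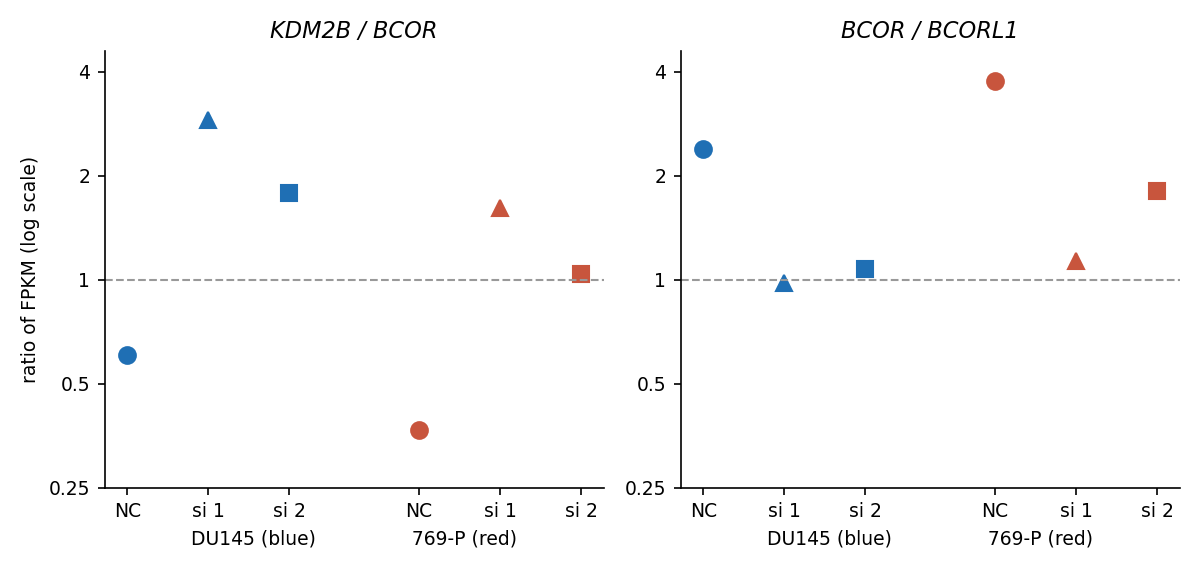
Ratios of FPKM between pairs of subunit genes in the 6 libraries, on a log axis. KDM2B to BCOR lies below 1 in both controls (0.607 and 0.366) and above 1 in the 4 knockdown libraries (1.04 to 2.90), while BCOR to BCORL1 is higher in the controls (2.38 and 3.77) than after knockdown (0.976 to 1.80).

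The siRNAs were also set against each other, as siRNA 2 minus siRNA 1 on the log2 scale. Of the 8 genes, 5 had the same sign of this difference in both lines (62.5%), close to the 59.6% of all genes tested. The sign was shared for BCOR (0.15 in DU145 and 0.15 in 769-P), PCGF1 (-0.31 and -0.32), KDM2B (-0.45 and -0.38), RYBP (-0.34 and -0.36) and RNF2 (0.22 and 0.17). It was opposite for BCORL1 (0.05 and -0.37), USP7 (0.23 and -0.24) and SKP1 (0.33 and -0.21).

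The lines were compared with each other over the 3 libraries of each with limma. The genes were not selected on this contrast, but the libraries of a line are its control and both knockdowns. Their spread therefore holds the SPOP changes the genes were selected on, which widens the standard errors in the fit without a block. PCGF1 averaged 16.6 ± 3.45 FPKM (SD, n = 3) in DU145 and 9.78 ± 3.24 in 769-P. It was the only one of the 8 genes past an adjusted p of 0.05, with a log2 difference of 0.73 (SE 0.25, limma adjusted p = 0.0396). That call is close to the threshold. It was lost without the filter on mean FPKM (limma adjusted p = 0.155) and with quantile normalization (limma adjusted p = 0.102), over a range of 0.00247 to 0.155 in all alternatives, and leaving out the DU145 control gave 0.140. The limma adjusted p was also above 0.05 without DU145 siRNA 1 (0.0946), 769-P siRNA 1 (0.0990) or 769-P siRNA 2 (0.146). KDM2B was at 6.91 ± 2.95 FPKM in DU145 and 4.595 ± 1.74 in 769-P, a log2 difference of 0.48 (SE 0.328, limma adjusted p = 0.262). With the transfection (NC, siRNA 1 or siRNA 2) as a block, PCGF1 had a limma adjusted p of 0.00247 and KDM2B of 0.0341, so that 2 of the 8 passed.

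None of the other 6 genes passed in the fit without the block, and their limma adjusted p-values ran from 0.208 for RYBP to 0.841 for RNF2. RYBP stood at 6.29 ± 1.38 FPKM in DU145 and 8.13 ± 1.16 in 769-P, and SKP1 at 56.4 ± 6.77 and 67.3 ± 14.3. BCOR averaged 4.597 ± 1.68 FPKM in DU145 and 5.37 ± 2.09 in 769-P, a log2 difference of -0.18 (SE 0.286), and a difference between the lines was not detectable in these libraries, nor with the transfection as a block (SE 0.166, limma adjusted p = 0.381). Of all genes tested 46.4% passed, 29.9% higher in DU145 (3550 genes) and 16.5% higher in 769-P (1959 genes), a split that became 2765 and 2920 with quantile normalization. For 0 of the 8 genes did the 3 libraries of DU145 and the 3 of 769-P fail to overlap, against 56.3% of all genes. Selection on a gap between control and knockdown widens the range within a line and so favours overlap. Nothing is therefore read from the shares among all genes.

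**Figure D4:**
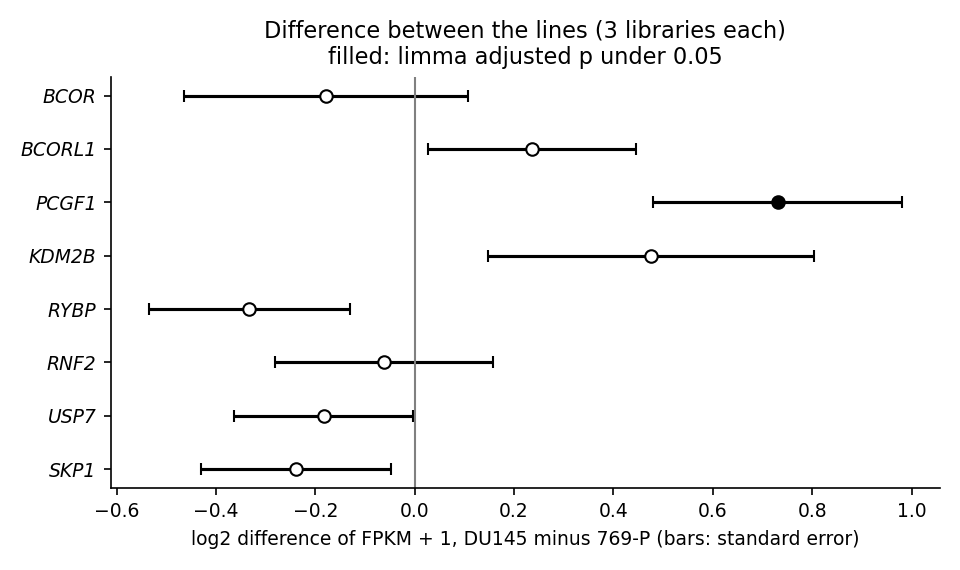
Difference between DU145 and 769-P on the log2(FPKM + 1) scale for each of the 8 genes, from limma on 3 libraries per line, with bars of 1 standard error. PCGF1 at 0.73 is the only gene past an adjusted p of 0.05, and BCOR (-0.18) and RNF2 (-0.06) lie within 1 standard error of 0.

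Other genes of the Polycomb system and of the partners of BCOR, USP7 and SKP1 were read from 10 lists, in which 104 genes other than the 8 were tested. In DU145, 5 were higher and 2 lower past 1.5-fold with both siRNAs (6.73%, beside 5.91% of all genes). In 769-P, 4 were higher and 7 lower (10.6%, beside 7.32%). JARID2, a PRC2 subunit that helps bring the complex to chromatin, was the only 1 of the 104 called in both lines. Its FPKM was 3.40 in the DU145 control, 12.7 with siRNA 1 and 7.48 with siRNA 2, and 2.32, 6.98 and 5.44 in 769-P. Both controls were below all 4 knockdown libraries, the order also seen for KDM2B.

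Among canonical PRC1 genes, 1 of 11 was lower in DU145 and 1 of 11 in 769-P, and none was higher. CBX6, a chromobox protein that reads methylated histone H3, had 25.8 FPKM in the DU145 control against 15.4 and 16.8. SCML2, a Polycomb protein with MBT repeats, had 1.65 FPKM in the 769-P control against 0.203 and 0.761. PCGF2, the ring finger partner of canonical PRC1 with the highest mean FPKM over the 6 libraries among the genes tested on that list, was not called, at 33.5, 38.1 and 36.7 FPKM in DU145 and 27.4, 26.9 and 26.3 in 769-P.

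Of 20 subunits of other variant PRC1 forms, FBRSL1 and HDAC1 were higher in DU145 and PCGF5 and CBX3 were lower in 769-P. HDAC1, a histone deacetylase, had 27.4 FPKM in the DU145 control against 48.8 and 44.7. PCGF5, a ring finger protein related to PCGF1, had 15.7 in the 769-P control against 9.40 and 9.01. In DU145 PCGF5 stood at 19.7 in the control, 10.3 with siRNA 1 and 17.7 with siRNA 2, so the siRNAs differed there. Of 10 PRC2 genes, SUZ12, a core subunit, was lower in 769-P, at 12.9 FPKM in the control against 6.74 and 8.11, while in DU145 its change was -0.74 with siRNA 1 and 0.34 with siRNA 2. On the list of H2A deubiquitination 0 of 8 genes was called, beside 5.91% of all genes in DU145 and 7.32% in 769-P. BAP1, the catalytic subunit with the highest mean FPKM on that list, had 35.9, 43.3 and 39.6 FPKM in DU145 and 25.6, 31.5 and 28.1 in 769-P.

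Among 11 genes of BCL6 and its co-repressors, HDAC4 and TBL1X were higher in DU145 and TBL1XR1 was lower in 769-P. TBL1X, an exchange factor of the NCoR complex, had 7.12 FPKM in the DU145 control against 19.4 and 12.1. Its paralog TBL1XR1 had 6.33 in the 769-P control against 3.52 and 3.46. Of 13 genes listed as repressed by BCL6 or BCOR, 7 averaged 1 FPKM or more, and none of these was called. Among all genes 5.91% were called in DU145 and 7.32% in 769-P, so nothing is read from a count of 0 in so few. CDKN1A, a cell cycle inhibitor with the highest mean FPKM on that list over the 6 libraries, had 70.6, 60.2 and 42.9 FPKM in DU145 and 210, 189 and 163 in 769-P. Of 12 CpG island targets of Polycomb, CDKN2B, an inhibitor of cyclin D kinases, was higher in 769-P, at 4.95 FPKM in the control against 12.8 and 12.3. PAX9, a developmental transcription factor, was lower in DU145, at 4.08 FPKM against 1.68 and 1.49. CDKN2A, with the highest mean FPKM of the targets over the 6 libraries, was at 375, 517 and 418 FPKM in DU145 and at 2.36, 0 and 1.62 in 769-P.

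The partners of SKP1 and USP7 gave few calls, all of them in 769-P. Of 13 genes of SCF ligases, SKP2, the F-box protein that targets p27, was lower in 769-P, at 20.9 FPKM in the control against 12.2 and 11.7, and stayed at 20.5, 19.5 and 19.2 in DU145. Among the substrates and partners of USP7, FOXO4 was higher and MDM2 was lower in 769-P, and none was called in DU145. FOXO4, a forkhead transcription factor, had 0.738 FPKM in the 769-P control against 2.45 and 1.61. Its change with siRNA 2, 0.589, lay barely past the threshold of 0.585. That library was also the one of 769-P with many olfactory receptor genes above 0. MDM2, a ubiquitin ligase, had 11.8 against 7.45 and 4.77. Of the 2 measured Polycomb genes named as substrates of cullin 3 ligases none was called, and H2AFY, a macro variant of histone H2A, had 89.9, 70.7 and 79.6 FPKM in DU145 and 132, 127 and 108 in 769-P. The difference of a gene's change between the lines was not tested for any of these.

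**Figure D5:**
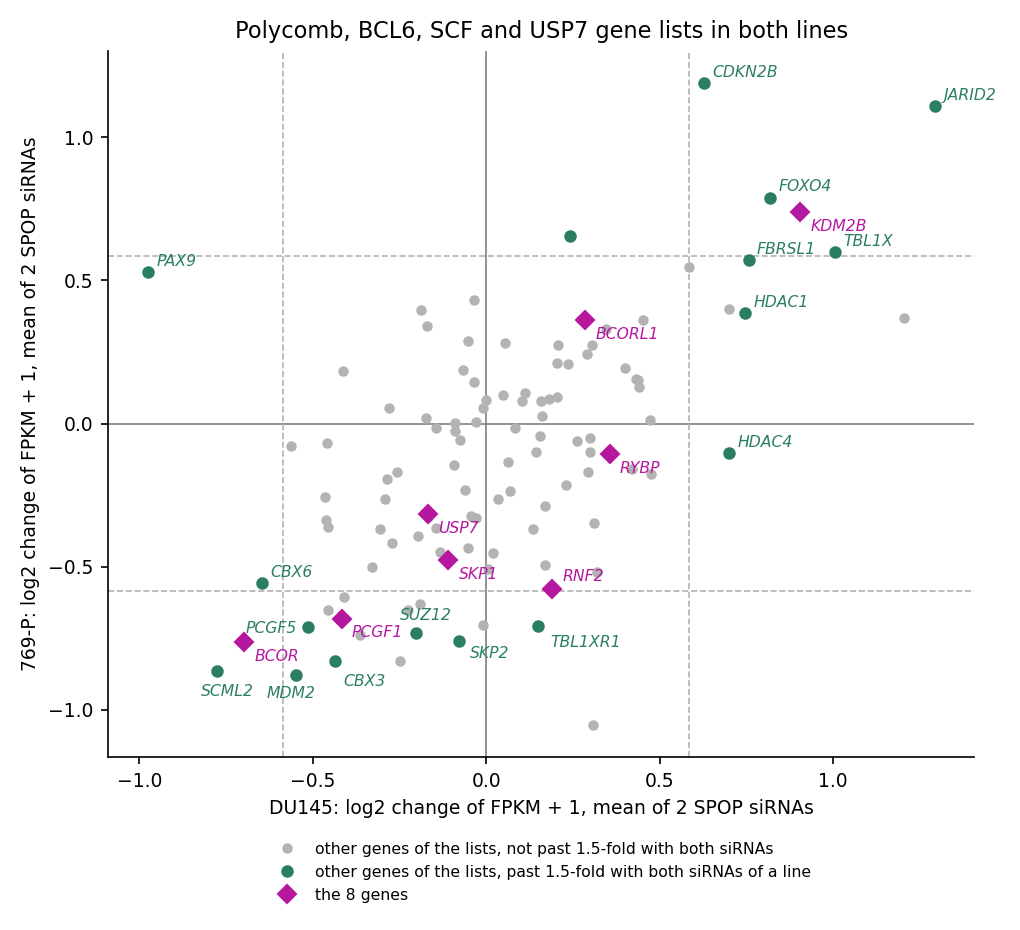
Mean log2 change over the 2 SPOP siRNAs in DU145 (horizontal) and 769-P (vertical) for the 8 genes (diamonds) and the 104 other genes of the 10 lists (circles), with dashed lines at 1.5-fold and labels on genes described in the text. BCOR lies at -0.70 and -0.76, KDM2B at 0.90 and 0.74, and JARID2 is the only circle past 1.5-fold with both siRNAs in both lines.

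The genes whose 4 changes lay nearest to those of BCOR, by Euclidean distance over the 4 log2 values, were a row of NDRG2 with MIR6717 (0.121), DSCC1 (0.182), SMIM13 (0.193), IFIT2 (0.197) and APBB3 (0.234). DSCC1, a subunit of the clamp loader of sister chromatid cohesion, had 5.86, 3.07 and 3.86 FPKM in DU145 and 11.8, 6.64 and 6.44 in 769-P. Within a distance of 0.3 there were 11 genes. The smallest of BCOR's 4 falls was -0.62, and 29 genes, BCOR included, were lower by at least that much in all 4 libraries. The smallest of the 4 rises of KDM2B was 0.55, and 130 genes, KDM2B included, were higher by at least that much in all 4.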

How the data were processed

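RNA-Seq of 6 libraries was used, 1 per siRNA and cell line. The authors trimmed the 100-bp reads, used TopHat2 to map them to hg19 with at most 2 mismatches, and deposited FPKM from Cufflinks as a single value per gene; tool versions and the annotation are not given in the sources used here. The labels give 1 library per condition, whereas the methods state 2 biological replicates. Nothing says that the siRNA libraries came from separate cultures, so p-values measure only the spread between libraries.

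Values of the same symbol were summed and changes were taken on log2(FPKM + 1). Calls needed a 1.5-fold change in 1 direction with each siRNA of a line. The lines were compared with limma 3.58.1 in R 4.3.3 (eBayes with a trend, Benjamini-Hochberg adjustment over 11865 genes averaging 1 FPKM or more), which was tested on simulated data first. Deviations of same-numbered transfections from their line means correlated over genes (0.35 for NC, 0.33 for siRNA 1, 0.25 for siRNA 2), so the numbers, which come from the sample titles, were also fitted as a block. GC content was taken from GENCODE transcripts (GRCh37) for 10446 of the tested genes, in 20 bins.

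The 8 genes and the lists were chosen with earlier results of these data known. From the lists, the genes past 1.5-fold with both siRNAs of a line, at most 3 per list, line and direction, and the highest gene of each list could be named, together with the 5 genes nearest to BCOR and the paralogs of the 8 genes. Some results under this rule are not reported here. DSCC1 was singled out of those 5 after its values were seen. Alternatives were a pseudocount of 0.1, other filters, median centring, subtraction of the olfactory receptor mean, a 2-fold threshold, the mean of both siRNAs, quantile normalization, the block and each library left out. Centring by GC content was added after the values were seen. Python 3.11.15, pandas 2.3.3 and numpy 2.4.6 were used for the tables.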

Additional observations from a re-analysis of the deposited data

Results flagged for a closer look

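RNF2 was picked out because it was above the control with both SPOP siRNAs in DU145 (0.08 and 0.30 on the log2 scale) and below it with both in 769-P (-0.66 and -0.49). Its mean change was 0.77 higher in DU145 than in 769-P. This difference was not tested. Of all genes tested, 10.4% were likewise higher with both siRNAs in DU145 and lower with both in 769-P. With centring by GC content the changes were 0.13 and 0.26 in DU145 and -0.34 and -0.11 in 769-P.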

How the results depend on the processing

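The alternatives were run for the 8 genes and not for the genes of the lists. BCOR and KDM2B kept the sign of their changes under all of them, and BCOR ranged from -0.84 to -0.62 in DU145 and from -0.88 to -0.69 in 769-P. The counts of called genes did not hold as well. In DU145 the count of 2 became 1 with median centring (BCOR), with the olfactory receptor mean subtracted (KDM2B), with a mean of at least 5 FPKM (KDM2B, as BCOR was then filtered out) and with GC centring (BCOR), and 0 at 2-fold. Each siRNA alone gave 2. In 769-P the count of 1 became 2 with a pseudocount of 0.1 and with median centring (BCOR and KDM2B in both), 3 with the mean of both siRNAs (PCGF1 added), 0 at 2-fold and 0 with at least 5 FPKM, and each siRNA alone gave 2 to 3. GC centring was chosen after seeing the data.

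For the lines, the count of 1 became 0 without a filter and 2 with the replicate block, and ranged from 0 to 1 with a library left out. PCGF1 was 0.73 (limma adjusted p = 0.155) without a filter and 0.56 (limma adjusted p = 0.102) with quantile normalization, under which RYBP was called in its place (limma adjusted p = 0.0330). With a library left out PCGF1 ranged from 0.54 to 0.96, and its call was lost without DU145 NC (0.140), DU145 siRNA 1 (0.0946), 769-P siRNA 1 (0.0990) or 769-P siRNA 2 (0.146). The sign reversed for BCOR without 769-P NC (0.076, in a range from -0.41 to 0.076 with a library left out), for BCORL1 with quantile normalization (-0.15), and for RNF2 without DU145 NC (0.0021) and without 769-P NC (0.13), in a range from -0.20 to 0.13. The block changed no other call among the 8 genes. The causes were not tested. Depth is known only relative to the 769-P control, and with 1 control library per line the precision of a single change is not known.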

Other observations

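Among the genes whose 4 changes lay nearest to those of KDM2B, chosen after the values were seen, PCNXL3 was the closest at a Euclidean distance of 0.0853, and 21 genes lay within 0.3. BMI1, PHC2 and EED, core genes of PRC1 and PRC2, are each listed only in a row shared with a neighbouring gene or a miRNA. The row with BMI1 had 87.1, 92.3 and 99.8 FPKM in DU145 and 34.3, 21.4 and 18.4 in 769-P for NC, siRNA 1 and siRNA 2. The row with EED had 11.1, 10.97 and 9.97 FPKM in DU145 and 10.3, 6.42 and 6.87 in 769-P. The part of BMI1 and of EED in these rows cannot be told apart from that of the genes listed with them.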
